A study of Mus musculus with 6 samples.

Results

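Interleukins are secreted signals between blood and immune cells, and each works only on cells that carry its receptor chains. The genes described here are the interleukins, their receptors and their named antagonists, chosen by symbol: all gene names in the count files that begin with Il and a digit, leaving out the common gamma chain Il2rg and the receptor chains Il2ra, Il2rb, Il4ra, Il7r, Il9r, Il15ra and Il21r. This gave 75 of the 24015 genes listed. By name, 38 were ligands and 33 were receptor chains. The other 4 were the receptor antagonist Il1rn, the binding protein Il18bp, the amino acid oxidase gene Il4i1 and Il1bos, a transcript antisense to Il1b that was set apart after its name was seen in the files.

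The RNA came from leukaemia stem and progenitor cells, sorted by FACS from mice with fully developed MLL-AF9 acute myeloid leukaemia. All the leukaemias had been started from lin-cKit+ bone marrow progenitors of NIKERT2 mice, so cells of both groups carried the Rosa-loxp-STOP-loxp-NIK allele, in which a stop cassette silences the kinase NIK, and the Rosa-CreERT2 allele, a Cre recombinase that tamoxifen activates. The 3 LSPC libraries came from untreated mice and the 3 LSPCT libraries from mice given tamoxifen. Age, sex, sort gates, dose and time of treatment were not given in the sources used here. Tamoxifen was given only where NIK was switched on, so effects of the drug, of Cre activity and of NIK cannot be told apart.

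NIK, encoded by Map3k14, drives the noncanonical NF-kB pathway, in which p100 is processed and dimers of RelB move to the nucleus. Interleukins and NF-kB are linked in both directions: several interleukin genes are known NF-kB targets, and receptors of the IL-1 and IL-17 families signal to NF-kB through adaptor proteins. Receptors of the IL-6 and IL-12 families, the IL-10 family and the beta chain family signal instead through JAK kinases and STAT factors. In myeloid progenitors, IL-3 is a growth factor, and IL-1 is known to push stem and progenitor cells towards myeloid output.

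Total counts were 19999071 to 26773176 per library, and levels are given as CPM, counts scaled to the library total with TMM factors. A gene with no count may still have stood at up to 3 counts, or 0.111 to 0.150 CPM, by counting error alone. The labels do not say whether replicates are separate mice, so p-values measure only the spread between these libraries. Map3k14 was at 24.2 to 28.8 CPM in the untreated and 129.8 to 190.5 CPM in the tamoxifen libraries (log2 2.59, SE 0.15, edgeR adjusted p = 4.35e-05), where SE is the standard error of the fit; reads of the allele and of the native gene are not told apart. Progenitor markers such as Kit and Cd34 were present in all 6 libraries (Kit 117 to 194 CPM). The haemoglobin genes Hba-a1, Hba-a2, Hbb-b1 and Hbb-b2 were listed at 0. They are close copies, and the handling of reads with several positions is not known, so this does not show that erythroid RNA was absent. Of 12 progenitor markers, 4 fell (Mpo, Elane, Prtn3 and Cebpa) and none rose. Over all tested genes 8.24% fell and 8.96% rose, and each count of markers that passed stands beside these shares. Some libraries stood apart. Tamoxifen replicate 1 held 1521 CPM of macrophage markers in sum, against 644 and 695 CPM in tamoxifen replicates 2 and 3 and 161 to 185 CPM untreated. It also held the most T and NK cell markers (82.0 CPM, against 19.3 to 45.1 CPM elsewhere) and the most mast cell, basophil and eosinophil markers (111 CPM, against 39.2 to 47.9 CPM). In that library, most of the T and NK sum was Lck (54.5 CPM, against 12.6 to 13.3 CPM untreated). Cd3d, Cd3e, Cd3g, Cd4, Cd8b1 and Zap70 were also highest there, whereas Cd8a and Klrb1c were highest in tamoxifen replicate 3. Most of the mast cell, basophil and eosinophil sum there was Prg2 (66.5 CPM). Untreated replicate 3 held 2097 CPM of mature neutrophil markers, against 25.4 to 516 CPM in the other 5 libraries. In bulk RNA, fewer cells of a type and less RNA per cell cannot be told apart.

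Of the 75 members, 20 had no count in any library, 20 more had counts but too few to test, and 35 were tested. Of the 38 ligands, 16 had no count at all, among them Il2, Il4, Il6, Il7, Il9, Il17a and Il22 and the myeloid growth factor Il3. With tamoxifen, 9 members rose and 1 fell (edgeR quasi-likelihood test, Benjamini-Hochberg adjusted over all 12729 genes tested, threshold 0.05, two-sided). That was 25.7% of tested members higher, where 8.96% of all tested genes rose, and 2.86% lower, where 8.24% of all tested genes fell. In either direction 28.6% of members passed, against 17.2% of all genes. The members that rose were the ligands Il12a, Il16 and Il18, the receptor chains Il27ra, Il22ra2, Il12rb2, Il17rb and Il1r1, and Il18bp; the member that fell was the receptor chain Il31ra. The median log2 fold change was 0.40 over the 35 tested members and -0.0025 over all genes tested. Of the 9 members that rose, Il18 passed the filter on low counts through the tamoxifen libraries alone, so it had to differ between groups to be tested at all; 29 of the 35 tested members were past the filter level in all 6 libraries.

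**Figure D1:**
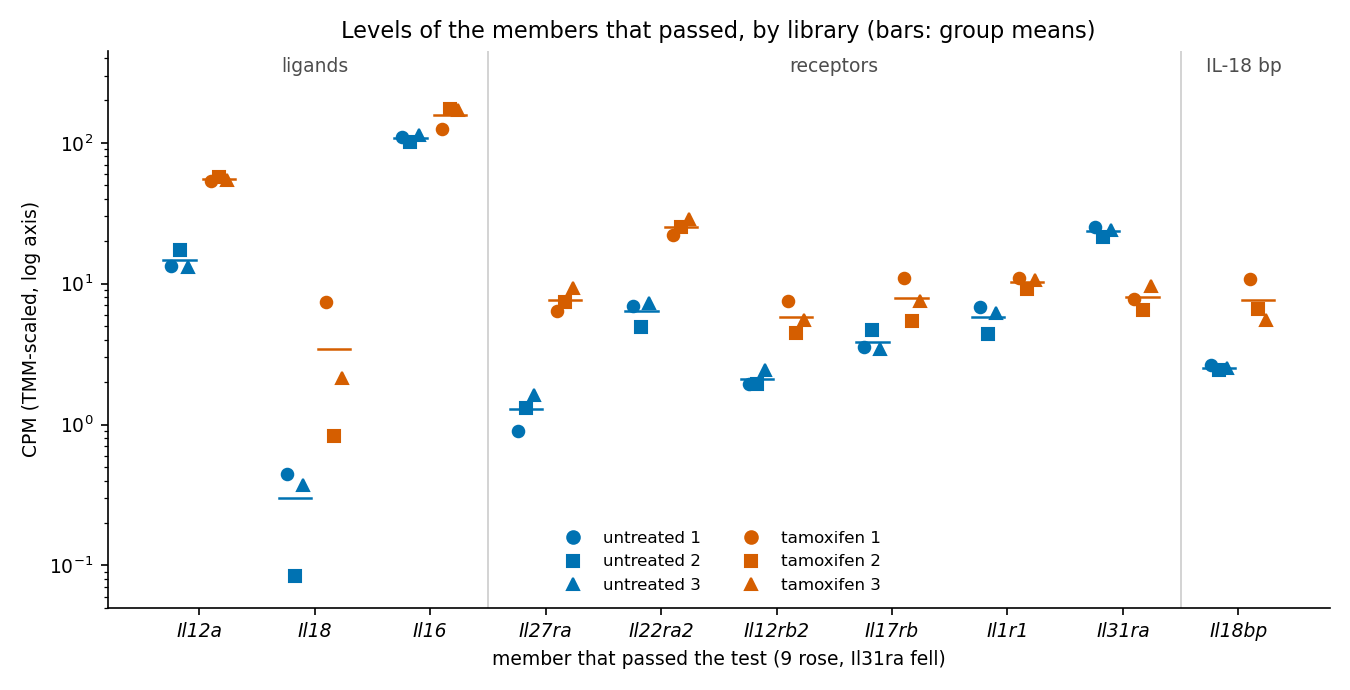
TMM-scaled CPM on a log axis for the 10 members that passed the test, as 1 point per library (circle, square and triangle for replicates 1, 2 and 3), with horizontal bars for the group means. In each member the 3 untreated points (blue) and the 3 tamoxifen points (orange) do not overlap, and Il18 has the widest spread between tamoxifen libraries (0.835 to 7.39 CPM).

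The start regions of the members were searched for the kB consensus motif, the sequence that NF-kB dimers bind, because NIK acts through NF-kB. RefSeq windows of 300 bases (GRCm38.p6, 250 before to 50 after a start) were found by symbol for 27 of the 35 tested members. A window with the kB consensus, on either strand, was found for 3 of the 27 (11.1%), against 9.55% of 27025 genes, so the share in the members was near the background. They were Il12rb2, Il16 and Il1r1, all members that rose. Of the 27 members, 7 rose, 1 fell and 19 did not pass, and none of those that fell or did not pass held the kB consensus. Whether the motif goes with the calls was not tested. The 8 tested members with no window in the table were Il10ra, Il10rb, Il12rb1, Il15, Il17ra, Il22ra2, Il27 and Il27ra. The core of the interferon-stimulated response element, searched on both strands, was found for Il1rap alone (3.70%, against 3.99% of genes). The 3 windows are shown to place the matches, in lower case with the matched bases in capitals.
Il12rb2: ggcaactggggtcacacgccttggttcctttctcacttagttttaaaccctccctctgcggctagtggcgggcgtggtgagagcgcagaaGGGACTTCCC
Il16: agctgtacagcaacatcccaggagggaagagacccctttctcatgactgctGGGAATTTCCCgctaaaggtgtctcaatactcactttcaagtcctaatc
Il1r1: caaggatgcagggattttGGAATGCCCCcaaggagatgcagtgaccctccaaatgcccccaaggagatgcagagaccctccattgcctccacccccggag
The Il12rb2 window is chr6:67376180-67376279 on the minus strand, and its match lies across the start, 1 base before it and 9 bases after. The Il16 window is chr7:83655496-83655595 on the minus strand, the last 100 bases before 1 of its 3 listed starts, and holds 2 overlapping matches, 1 on each strand. The Il1r1 window is chr1:40266336-40266435 on the plus strand, from 250 to 151 bases before 1 of its 2 listed starts, with the match on the opposite strand. The counts do not tell which start was used, and a match is a description of the letters, not of binding. The windows of Il12a, the member with the smallest p, held neither motif, which says only that these letters are not in them.

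Among the ligands, Il12a gave the smallest p. It encodes the smaller subunit of IL-12, which it forms with the product of Il12b, and of IL-35, which it forms with the product of Ebi3. Il12a stood at 13.4, 17.4 and 13.2 CPM in untreated replicates 1, 2 and 3 and at 53.6, 57.0 and 54.5 CPM in tamoxifen replicates 1, 2 and 3. All tamoxifen libraries lay far above all untreated ones and close together. The means were 14.7 ± 2.38 and 55.04 ± 1.73 CPM (SD, n = 3), a 3.75-fold difference, and the log2 fold change was 1.91 (SE 0.13, edgeR adjusted p = 8.00e-05). Per kilobase of exon, Il12a was sixth among the 35 tested members in the untreated libraries (10.7 CPM per kb) and second in the tamoxifen libraries (40.2 CPM per kb), where its 39.1 to 41.6 CPM per kb lay above the 25.3 to 35.5 CPM per kb of the IL-3 receptor chain Il3ra.

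The partners of this subunit had unlike levels. Il12b, the other subunit of IL-12, had 6 counts in untreated replicate 3, 3 counts in tamoxifen replicate 1 and none in the other 4 libraries. Il23a, which pairs with Il12b to form IL-23, had 4 counts over the untreated and 11 over the tamoxifen libraries, 10 of the latter in tamoxifen replicate 1. Ebi3, which falls outside the name rule, stood at 54.9, 35.2 and 49.2 CPM untreated and at 101, 82.0 and 83.1 CPM with tamoxifen. The Ebi3 groups did not overlap, and it rose by a log2 of 0.93 (SE 0.17, edgeR adjusted p = 0.00794). Il27, whose product pairs with that of Ebi3 to form IL-27, was low and uneven, at 0.497, 0 and 1.45 CPM untreated and 0.250, 0.325 and 0.752 CPM with tamoxifen, and did not pass (log2 -0.56, SE 1.04, edgeR adjusted p = 0.758).

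Il16 encodes a precursor protein whose secreted end attracts CD4-positive cells and whose longer form is nuclear. It was the ligand with the most counts, at 109, 102 and 113 CPM untreated and 125, 175 and 171 CPM with tamoxifen. Tamoxifen replicate 1 lay only a little above the untreated libraries, and replicates 2 and 3 well above them. The log2 fold change was 0.54 (SE 0.13, edgeR adjusted p = 0.0295). With tamoxifen replicate 1 left out, the log2 fold change was 0.68 (edgeR adjusted p = 0.000784), whereas leaving out any other library ended the call (edgeR adjusted p 0.0571 to 0.107).

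Il18, the ligand of the IL-1 family that caspase-1 matures, had the largest fitted change among the 35 members past the filter. Its levels were 0.447, 0.0847 and 0.371 CPM untreated, which were 9, 2 and 10 counts, and 7.39, 0.835 and 2.12 CPM with tamoxifen, which were 148, 18 and 48 counts. The groups did not overlap, but tamoxifen replicate 2 lay much nearer to the untreated libraries than to tamoxifen replicate 1. The log2 fold change was 3.50 (SE 0.89, edgeR adjusted p = 0.0313), and 2.30 when tamoxifen replicate 1 was left out (edgeR adjusted p = 0.0384). Leaving out any untreated library or tamoxifen replicate 3 ended the call (edgeR adjusted p 0.0561 to 0.0983). Tamoxifen replicate 1 was also the library with the most macrophage markers. Of 11 tested markers 9 rose, where 8.96% of all tested genes rose, and none of the list was at 0 in all libraries. C1qa, for example, was at 92.5 CPM there against 8.03 and 14.3 CPM in tamoxifen replicates 2 and 3 and 0.339 to 3.63 CPM untreated. Of the markers that rose, Fcgr1, at 0 to 0.248 CPM untreated, also passed the filter through the tamoxifen libraries alone. The part of macrophage RNA in the Il18 values was not tested.

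The other tested ligands did not pass. Il1a, which encodes IL-1 alpha, was at 0.547, 0 and 0.185 CPM untreated and 1.75, 0.881 and 0.884 CPM with tamoxifen; the groups did not overlap, but the spread was wide (log2 2.29, SE 0.86, edgeR adjusted p = 0.110). Its log2 was 3.53 without untreated replicate 1 and 1.69 without untreated replicate 2, and passed in neither fit (edgeR adjusted p 0.0846 and 0.177). Its neighbour Il1b, which encodes IL-1 beta, was highest in untreated replicate 3 at 2.19 CPM and stood at 0.254 to 1.75 CPM in the other libraries (log2 0.26, edgeR adjusted p = 0.843), with a log2 of 1.68 when that library was left out (edgeR adjusted p = 0.140). Il1f9, the gene of IL-36 gamma, gave a log2 of 0.13 with 3.13 to 6.86 CPM untreated and 4.54 to 5.17 CPM with tamoxifen (edgeR adjusted p = 0.826). Il15, whose product signals through the common gamma chain, was at 6.12 to 10.2 CPM untreated and 5.94 to 11.2 CPM with tamoxifen (log2 0.03, SE 0.32, edgeR adjusted p = 0.956). Il11, a ligand of the gp130 chain, was at 0.635 to 0.994 CPM untreated and 0.696 to 0.899 CPM with tamoxifen (log2 -0.14, edgeR adjusted p = 0.839).

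**Figure D2:**
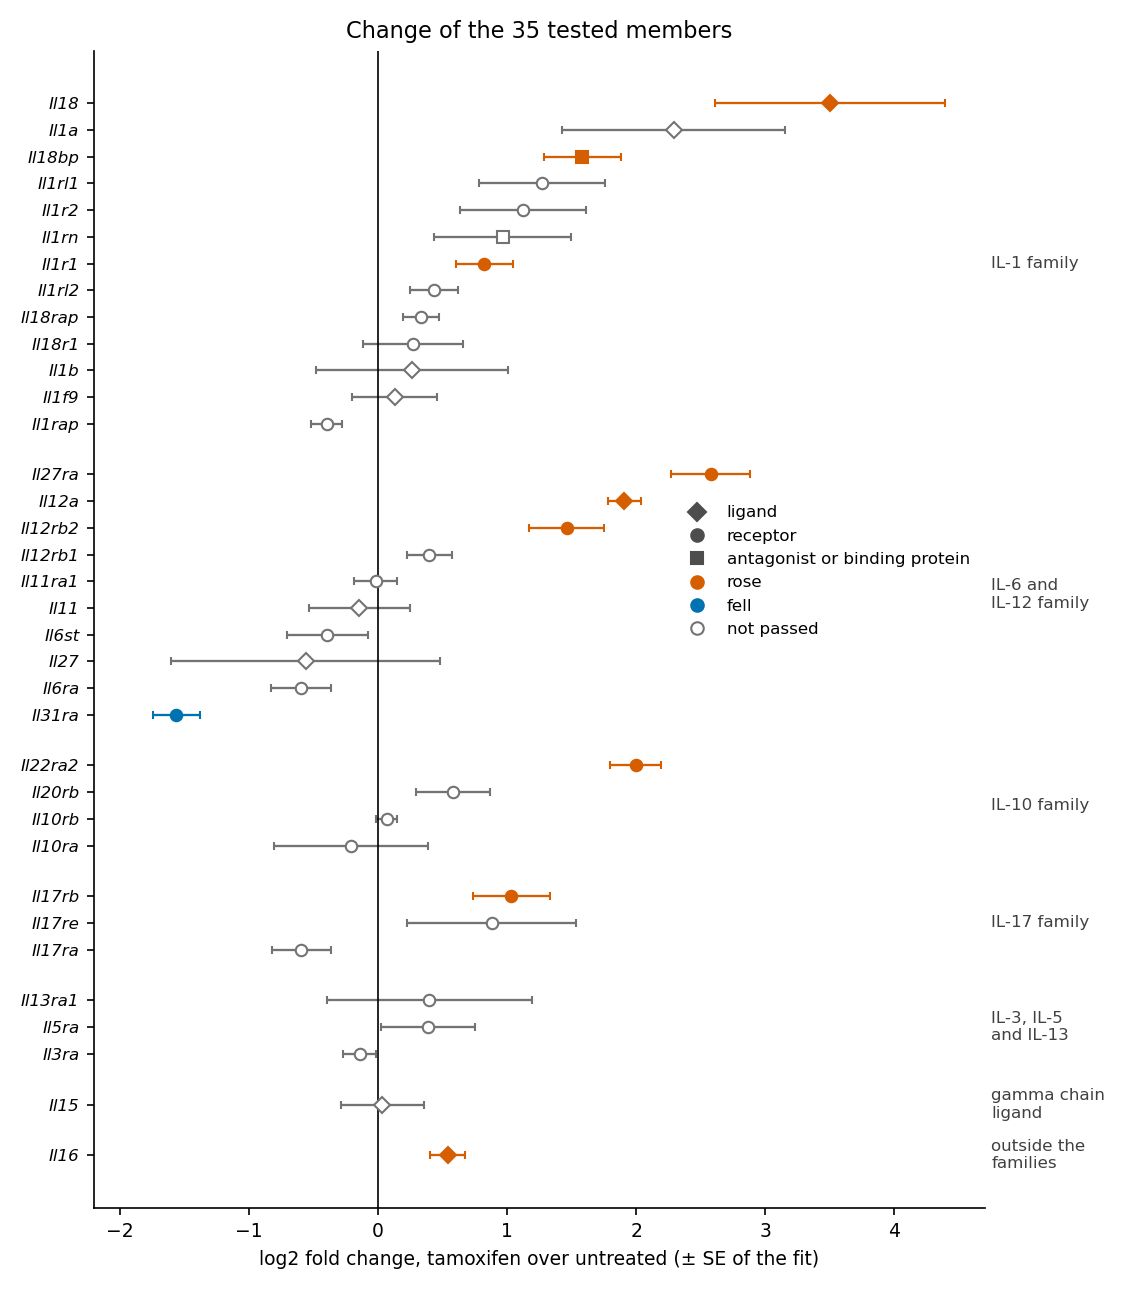
Log2 fold change of tamoxifen over untreated libraries with the SE of the edgeR fit, for the 35 tested members grouped by family (diamonds ligands, circles receptor chains, squares antagonist or binding protein; filled where the test was passed). In the IL-1 family 12 of 13 tested members lie to the right of 0, though only 3 of them passed. Over all 35 members 25 lie to the right, and the median over all genes tested was -0.0025. Il1b and Il1f9, among the 12, changed sign in some fits with a library left out.

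Of the receptor chains for IL-12, IL-23 and IL-27, Il27ra and Il12rb2 rose. Il27ra, the chain that with gp130 forms the IL-27 receptor, was at 0.894, 1.31 and 1.63 CPM untreated and 6.44, 7.42 and 9.29 CPM with tamoxifen. Every tamoxifen library was above every untreated one, and the log2 fold change of 2.58 (SE 0.31, edgeR adjusted p = 0.00117) was the largest among the tested receptor chains. Il12rb2, the signalling chain of the IL-12 receptor, went from 1.94, 1.95 and 2.45 CPM to 7.59, 4.45 and 5.48 CPM (log2 1.46, SE 0.29, edgeR adjusted p = 0.0118). It missed the threshold without untreated replicate 1 or 2 (edgeR adjusted p 0.0601 and 0.0511). The highest value was that of tamoxifen replicate 1, the library with the most macrophage and T and NK cell markers. Of 6 tested T and NK markers only Lck rose, which made up most of that sum, and Ncr1 was at 0. Without that library the Il12rb2 log2 was 1.24 (edgeR adjusted p = 0.0119). Its partner Il12rb1, which the receptors of IL-12 and IL-23 share, was at 9.02 to 10.04 CPM untreated and 10.4 to 14.02 CPM with tamoxifen; the groups did not overlap, but the difference did not pass (log2 0.40, SE 0.18, edgeR adjusted p = 0.164). Il23r, the gene of the chain specific to IL-23, had 6 counts in tamoxifen replicate 1 and none in the other 5 libraries.

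Among the receptor chains of the IL-6 and IL-12 family other than Il27ra and Il12rb2, 1 fell and none rose. Il31ra, which pairs with the oncostatin M receptor to bind IL-31, was the member that fell. It stood at 25.3, 21.3 and 24.2 CPM untreated and at 7.79, 6.50 and 9.69 CPM with tamoxifen, with no overlap. Its log2 fold change was -1.56 (SE 0.18, edgeR adjusted p = 0.00100). Il31, its ligand, had no count in any library, and Osmr, the gene of the oncostatin M receptor, had 4 counts untreated and 12 with tamoxifen. Il6st, which encodes gp130 and lies next to Il31ra with no protein-coding gene between them in RefSeq, ranged from 15.8 to 34.4 CPM untreated and from 12.4 to 23.4 CPM with tamoxifen, and did not pass (log2 -0.39, SE 0.31, edgeR adjusted p = 0.438). Il6ra, the IL-6 binding chain, was at 88.0, 109 and 106 CPM untreated and 41.7, 79.9 and 78.6 CPM with tamoxifen. The Il6ra groups did not overlap, tamoxifen replicate 1 was lowest, and the log2 of -0.60 (SE 0.23) did not pass in edgeR (adjusted p = 0.116) but did in DESeq2 (adjusted p = 0.0237) and in edgeR with the replicate number as a block (adjusted p = 0.0316). Il11ra1, the IL-11 binding chain, did not pass (log2 -0.02, SE 0.17, edgeR adjusted p = 0.960). Its close copy Il11ra2 was listed at 0 in all libraries, so the Il11ra1 counts are uncertain where reads match both genes.

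In the IL-10 family, Il22ra2 rose. It encodes a soluble receptor without a membrane anchor that binds IL-22 and keeps it from its signalling receptor. Its levels were 6.91, 4.91 and 7.24 CPM untreated and 22.0, 25.1 and 28.8 CPM with tamoxifen. The groups were far apart, with means of 6.35 ± 1.26 and 25.3 ± 3.41 CPM (SD, n = 3) and a log2 fold change of 1.995 (SE 0.19, edgeR adjusted p = 0.000448). IL-22 itself (Il22) had no count in any library, and Il22ra1, a chain of the signalling receptor, had 10 counts in all. Il20ra, the neighbour of Il22ra2 with no protein-coding gene between them in RefSeq, had 8 counts untreated and 6 with tamoxifen. Il10rb, the chain shared by the IL-10, IL-22 and type III interferon receptors, had the highest level per kilobase of all tested members, with 101 to 110 CPM untreated and 106 to 112 CPM with tamoxifen (log2 0.07, SE 0.08, edgeR adjusted p = 0.613). Il20rb did not pass (log2 0.58, SE 0.29, edgeR adjusted p = 0.210).

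Il10ra, the chain that binds IL-10, and Il13ra1, a chain of the IL-13 receptor, were high in untreated replicate 3. Il10ra was at 6.91, 8.26 and 33.3 CPM untreated and 21.0, 8.86 and 12.3 CPM with tamoxifen (log2 -0.21, edgeR adjusted p = 0.846). Il13ra1 was at 2.68, 2.58 and 18.3 CPM untreated and 4.04, 10.1 and 17.1 CPM with tamoxifen (log2 0.40, edgeR adjusted p = 0.774). That library had the most mature neutrophil markers, of which 0 of 9 rose or fell between the groups; S100a9, for example, was at 642 CPM there against 88.2 and 2.37 CPM in untreated replicates 1 and 2. Without untreated replicate 3 and tamoxifen replicate 1, the libraries with the most neutrophil and macrophage markers, Il13ra1 had a log2 of 2.37 (edgeR adjusted p = 0.000191) and Il10ra one of 0.49 (edgeR adjusted p = 0.158). This pair was chosen after the data were seen. It holds the highest untreated and the lowest tamoxifen value of Il13ra1, so a larger log2 for Il13ra1 was fixed in advance. The part of neutrophil RNA in the Il10ra and Il13ra1 values was not tested.

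**Figure D3:**
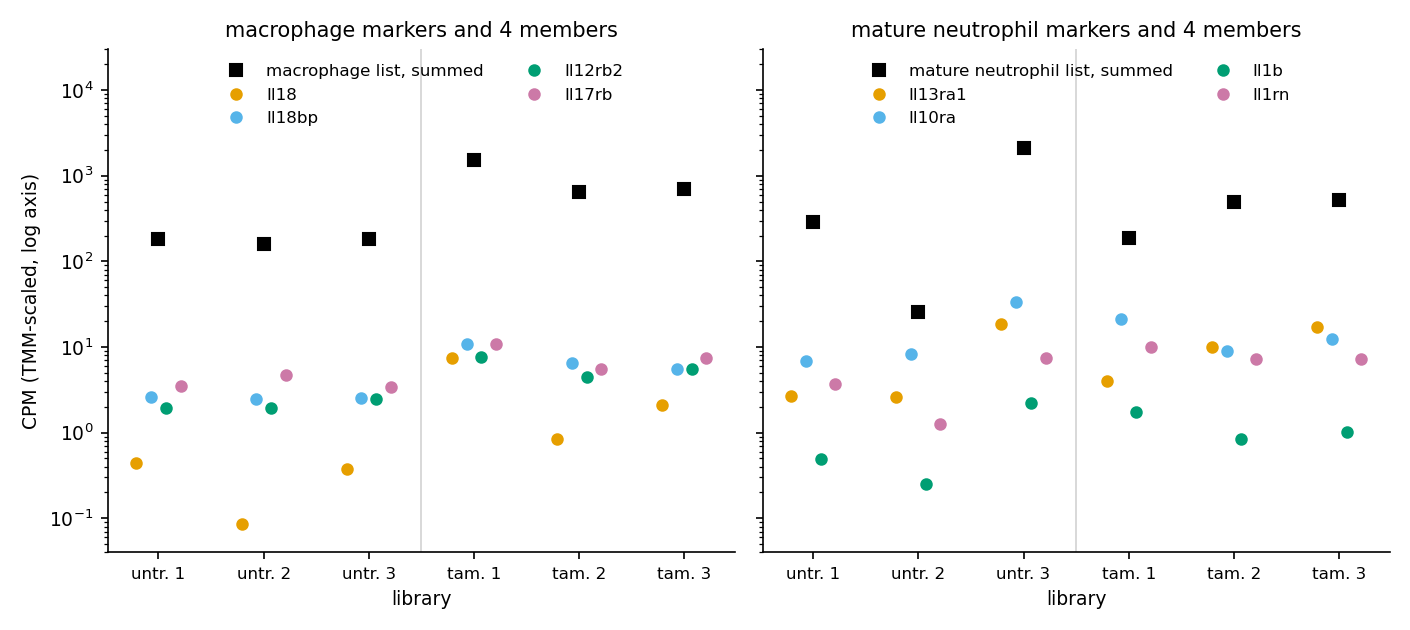
TMM-scaled CPM on a log axis in each of the 6 libraries: on the left the summed macrophage marker list (black squares) with Il18, Il18bp, Il12rb2 and Il17rb, on the right the summed mature neutrophil list with Il13ra1, Il10ra, Il1b and Il1rn. Tamoxifen replicate 1 is highest in the macrophage sum (1521 CPM) and in the 4 members on the left. Most of the macrophage sum in the tamoxifen libraries is Vcam1. Of the members that rose and are not shown, Il1r1 is also highest in tamoxifen replicate 1. By contrast, Il12a, Il16, Il22ra2 and Il27ra are lower in that library than in the other tamoxifen libraries. Untreated replicate 3 is highest in the neutrophil sum (2097 CPM) and in Il13ra1, Il10ra and Il1b on the right.

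The IL-1 receptor family has 6 genes in a row, Il1r2, Il1r1, Il1rl2, Il1rl1, Il18r1 and Il18rap, with no other protein-coding gene between them in RefSeq. All 6 were tested, and all 6 had a log2 fold change above 0, from 0.27 to 1.27, but only Il1r1 passed. Il1r1, the signalling receptor of IL-1, was at 6.81, 4.36 and 6.20 CPM untreated and 10.9, 9.23 and 10.6 CPM with tamoxifen (log2 0.82, SE 0.22, edgeR adjusted p = 0.0374). Its groups did not overlap, but leaving out any library except tamoxifen replicate 1 ended the call (edgeR adjusted p 0.0652 to 0.106). Il1rl1, the IL-33 receptor, had 6 to 12 counts per untreated and 19 to 27 counts per tamoxifen library (log2 1.27, SE 0.49, edgeR adjusted p = 0.114). It was highest in tamoxifen replicate 1, which also had the most mast cell, basophil and eosinophil markers in sum (0 of 4 tested rose or fell). Most of that sum was Prg2, at 66.5 CPM there against 4.36 and 3.32 CPM in tamoxifen replicates 2 and 3. The other tested markers did not set that library apart. Cpa3 was at 23.9 CPM there and 23.3 CPM in tamoxifen replicate 3. Mcpt8 (17.4 CPM) and Ms4a2 (2.15 CPM) were higher in untreated replicates 2 (19.1 CPM) and 3 (3.08 CPM) respectively. The part of such RNA in the Il1rl1 values was not tested. Il1rl2, the IL-36 receptor, was at 6.01 to 6.75 CPM untreated and 8.18 to 9.70 CPM with tamoxifen, also without overlap (log2 0.43, SE 0.18, edgeR adjusted p = 0.146).

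Of the other genes in that row, Il1r2 encodes a decoy that binds IL-1 without signalling. It was at 2.09, 0.720 and 2.49 CPM untreated and 2.35, 5.01 and 4.201 CPM with tamoxifen (log2 1.12, SE 0.49, edgeR adjusted p = 0.158). Without untreated replicate 3 and tamoxifen replicate 1 its log2 was 1.74 (edgeR adjusted p = 0.0186). These were its highest untreated and lowest tamoxifen libraries, left out after the data were seen, so a larger log2 was fixed in advance. Il18rap, the accessory chain for IL-18, was at 43.4 ± 9.18 CPM untreated and 54.7 ± 1.16 CPM with tamoxifen (SD, n = 3), with overlap (log2 0.33, SE 0.14, edgeR adjusted p = 0.148). It passed without untreated replicate 3 (log2 0.53, edgeR adjusted p = 0.0165), the highest untreated library. Il18r1, the IL-18 binding chain, was low at 0.890 to 1.64 CPM in all libraries (log2 0.27, edgeR adjusted p = 0.684). Il1rap, the accessory chain that the receptors for IL-1, IL-33 and IL-36 share and that lies elsewhere in the genome, differed in the opposite direction. It was at 23.4, 22.6 and 26.8 CPM untreated and 18.6, 19.3 and 17.4 CPM with tamoxifen, without overlap, and just missed the threshold (log2 -0.40, SE 0.12, edgeR adjusted p = 0.0569).

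The soluble brakes of the family were measured too. Il18bp, the secreted protein that binds IL-18, was even in the untreated libraries at 2.63, 2.46 and 2.52 CPM and stood at 10.7, 6.59 and 5.53 CPM with tamoxifen, highest in tamoxifen replicate 1. Its log2 fold change was 1.58 (SE 0.30, edgeR adjusted p = 0.00956), and 1.25 without that library and untreated replicate 3 (edgeR adjusted p = 0.0102). Il1rn, the IL-1 receptor antagonist, was at 3.68, 1.27 and 7.46 CPM untreated and 9.89, 7.19 and 7.25 CPM with tamoxifen. The Il1rn groups overlapped through untreated replicate 3, and the difference did not pass (log2 0.96, SE 0.53, edgeR adjusted p = 0.255). Without untreated replicate 3 the log2 was 1.73 (edgeR adjusted p = 0.0502), and without that library and tamoxifen replicate 1 it was 1.57 (edgeR adjusted p = 0.0186). That pair was left out after the data were seen, and untreated replicate 3 was the highest untreated library of Il1rn.

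In the IL-17 family, 3 receptor chains were tested and 1 rose. Il17rb, the IL-25 binding chain, was at 3.53, 4.66 and 3.45 CPM untreated and 10.9, 5.47 and 7.47 CPM with tamoxifen, highest in tamoxifen replicate 1. It passed only just (log2 1.03, SE 0.30, edgeR adjusted p = 0.0487), and leaving out any library except tamoxifen replicate 2 ended the call (edgeR adjusted p 0.0676 to 0.165). Il17ra, the chain common to the family's receptors, was at 176, 181 and 231 CPM untreated and 84.3, 153 and 153 CPM with tamoxifen. The Il17ra groups did not overlap and tamoxifen replicate 1 was lowest; the log2 of -0.59 (SE 0.23) did not pass in edgeR (adjusted p = 0.111) but did in DESeq2 (adjusted p = 0.0178) and with the replicate block in edgeR (adjusted p = 0.0419). Il17re did not pass (log2 0.88, SE 0.66, edgeR adjusted p = 0.404; log2 0.27 without tamoxifen replicate 1). Il3ra, the IL-3 binding chain, was at 90.0, 89.2 and 82.6 CPM untreated and 90.6, 82.2 and 64.6 CPM with tamoxifen (log2 -0.14, SE 0.13, edgeR adjusted p = 0.499). Il5ra, the IL-5 binding chain, was at 0.944 to 1.44 CPM untreated and 1.30 to 2.09 CPM with tamoxifen (log2 0.39, SE 0.36, edgeR adjusted p = 0.513).

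**Figure D4:**
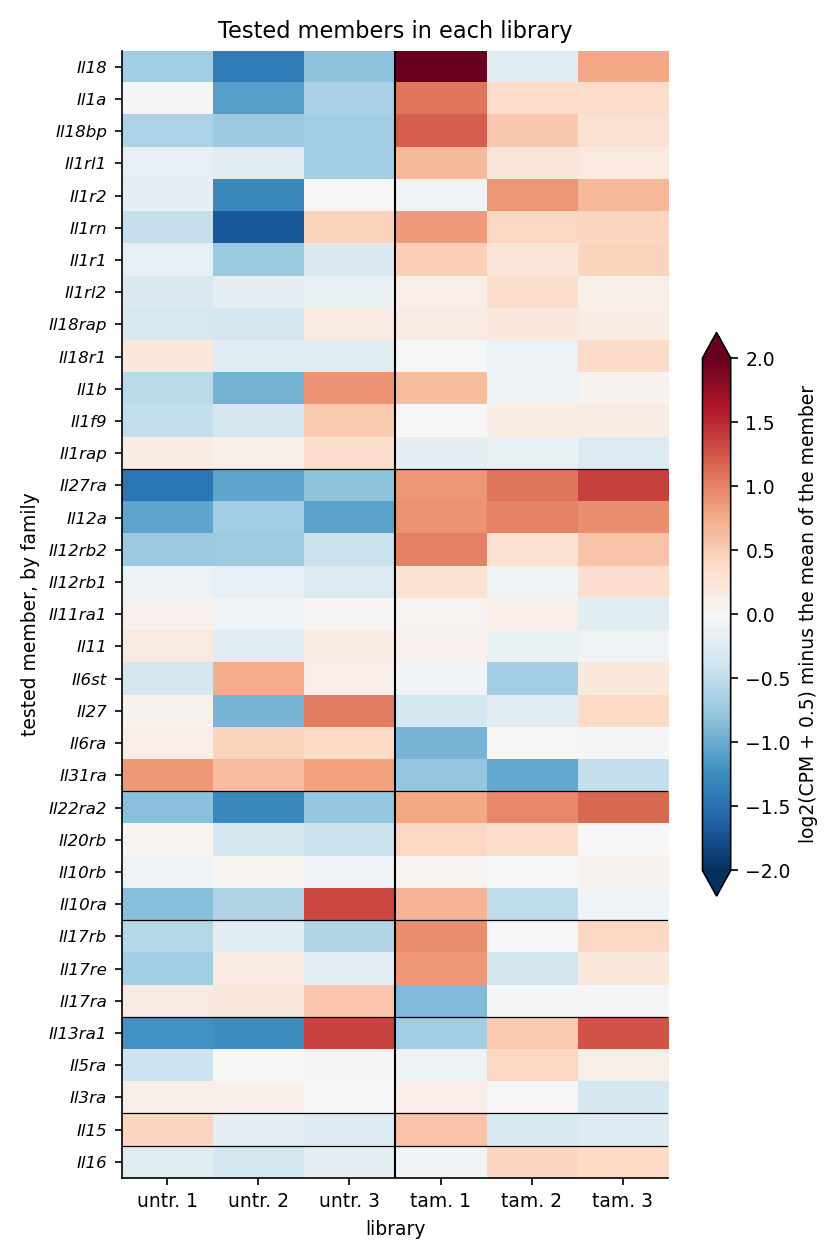
Log2(CPM + 0.5) minus the mean of each member for the 35 tested members (rows, by family) in the 6 libraries (columns), where red is above and blue below the mean of the member. Il12a, Il27ra and Il22ra2 are red in all 3 tamoxifen columns and Il31ra is blue in them, whereas Il10ra and Il13ra1 are red in untreated replicate 3.

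Counting members whose groups did not overlap, 13 of the 35 tested were higher in every tamoxifen library and 4 lower, where 18.0% of all tested genes were higher and 19.6% lower in that way. Those that were lower were Il31ra, Il1rap, Il6ra and Il17ra, which were named after their values were seen. At the level of families, 3 of 13 tested IL-1 family members rose and none fell, 3 of 10 in the IL-6 and IL-12 family rose and 1 fell, and 1 of 4 in the IL-10 family and 1 of 3 in the IL-17 family rose, where 8.96% of all tested genes rose and 8.24% fell. None of the 3 tested members of the IL-3, IL-5 and IL-13 group passed.

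Among the members with too few counts for the test, Il10, which encodes an inhibitory cytokine, differed most. It had 0, 0 and 1 counts in the untreated libraries and 0, 29 and 13 counts in the tamoxifen libraries, so it was seen in tamoxifen replicates 2 and 3 and not in replicate 1. The ratio of the pooled counts was 46.2, with an exact 95% interval of 7.86 to 1869 that covers counting error only. Fitted without the filter, it did not pass in edgeR (adjusted p = 0.0564), and it passed in DESeq2 (adjusted p = 0.0220). Il33, an alarmin of the IL-1 family, had 5, 15 and 14 counts untreated and 1, 5 and 4 with tamoxifen (ratio 0.324, exact 95% counting interval 0.143 to 0.670). Its difference did not pass without the filter in edgeR (adjusted p = 0.269).

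Il17c had 14 and 8 counts in tamoxifen replicates 1 and 3 and none in replicate 2, against 12 counts in the untreated libraries (ratio 2.02, exact 95% counting interval 0.957 to 4.48). Il17f (7 counts untreated and 11 with tamoxifen), Il17d (13 and 4), Il17rc (25 and 28) and Il17rd (31 and 30) completed the members with at least 10 counts. The neuronal receptor gene Il1rapl1, like Il23r, had counts in tamoxifen replicate 1 alone (7 counts). Il5 had 5 counts, all in tamoxifen replicate 2, and Il1bos had 6 counts untreated and none with tamoxifen, which cannot be told from reads of Il1b without strand. Il12b, Il13, Il17b, Il19, Il21 and Il34 also had fewer than 10 counts over all 6 libraries. Beside the silent ligands named above, Il20, Il24, Il25, Il31, Il1f5, Il1f6, Il1f8 and Il1f10 had no count, nor had the receptor genes Il11ra2, Il13ra2 and Il1rapl2 or the oxidase gene Il4i1.

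Genes that work with these cytokines and receptors but do not carry the name were counted by list, each with its median log2 beside that of all genes tested (-0.0025). These counts stand against 8.96% of all tested genes that rose and 8.24% that fell, and counts near those shares are not results about a list. Of 16 tested genes of IL-1 family signalling, 2 rose and 1 fell (median log2 -0.05), near the shares of all genes: the adaptor kinase gene Irak2 (log2 0.57, SE 0.13) and the inhibitory Irak3 (log2 0.99, SE 0.11) rose, and Tollip, an inhibitory adaptor, fell by 0.31. Of 12 genes of the inflammasome, which matures IL-1 beta and IL-18, 3 rose and none fell (median log2 0.08). The inflammatory caspase gene Casp4 went from 12.3, 11.4 and 11.2 CPM to 54.8, 42.8 and 47.5 CPM (log2 2.06, SE 0.12), and Casp1 (log2 0.42) and the sensor gene Nlrc4 (log2 0.45) also rose.

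Among 12 tested genes of gp130 cytokines and their STAT3 branch, 2 rose and 1 fell (median log2 0.37). The kinase gene Tyk2, which serves the receptors of IL-12, IL-23, IL-10 and type I interferon, rose from 120 to 129 CPM to 184 to 194 CPM (log2 0.59, SE 0.08, edgeR adjusted p = 0.00182). Of the receptor sheddases, Adam17 rose (log2 0.38) and Adam10 fell by 0.50. In the list of IL-12 family partners, which shares Tyk2, 4 of 6 tested genes rose and none fell (median log2 0.60), among them Ebi3, Tyk2 and Stat4, the STAT of IL-12 signalling (log2 0.60, SE 0.13).

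For the mixed list of IL-10 family partners and targets, 5 of 10 rose and none fell (median log2 0.51). Of these, Tyk2 (also in both lists above), Bcl3 (log2 1.15), the interferon receptor gene Ifnar1 (log2 0.47) and Sbno2 (log2 0.59) had the smallest p. Jak1 (log2 0.35) and Stat3 (log2 0.07) were among those that did not pass. In IL-17 signalling 2 of 9 rose and none fell (median log2 0.09), namely Traf2 (log2 0.50) and the feedback inhibitor Tnfaip3 (log2 2.92). Of 9 tested partners of the IL-3 and IL-5 receptors none passed (median log2 0.03, edgeR), and their shared beta chain Csf2rb was at 210 to 229 CPM untreated and 220 to 224 CPM with tamoxifen (log2 0.03).

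In the type 2 cytokine list, 2 of 7 rose and 1 fell (median log2 0.87), and the ligand and the receptor moved in opposite directions. Tslp, an epithelial cytokine of the IL-7 type, was at 0.298, 0.254 and 0.260 CPM untreated and 2.85, 2.23 and 1.90 CPM with tamoxifen (log2 3.08, SE 0.39, edgeR adjusted p = 0.00155). Every untreated value lay under the filter level of 0.455 CPM, so Tslp had to differ between groups to be tested at all. Of 7 tested stroma and endothelium markers, 3 rose (Col1a1 log2 1.75, Col1a2 1.80 and Pdgfra 3.28) and Pecam1 fell (log2 -1.09). Over all tested genes 8.96% rose and 8.24% fell. No gene of the stroma and endothelium list was at 0 in all libraries. The summed level of that list was 135 to 177 CPM untreated and 72.2 to 122 CPM with tamoxifen, most of it Pecam1. Pdgfra, at 0.0424 to 0.0742 CPM untreated, also passed the filter through the tamoxifen libraries alone. The part of stroma and endothelium RNA in the Tslp values was not tested. Its receptor chain Crlf2 went from 93.7, 79.9 and 87.9 CPM to 55.1, 56.4 and 43.3 CPM and fell, with a log2 of -0.76 (SE 0.12, edgeR adjusted p = 0.00507). The third gene that passed was the transcription factor gene Gata2, which rose (log2 1.12, SE 0.08).

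**Figure D5:**
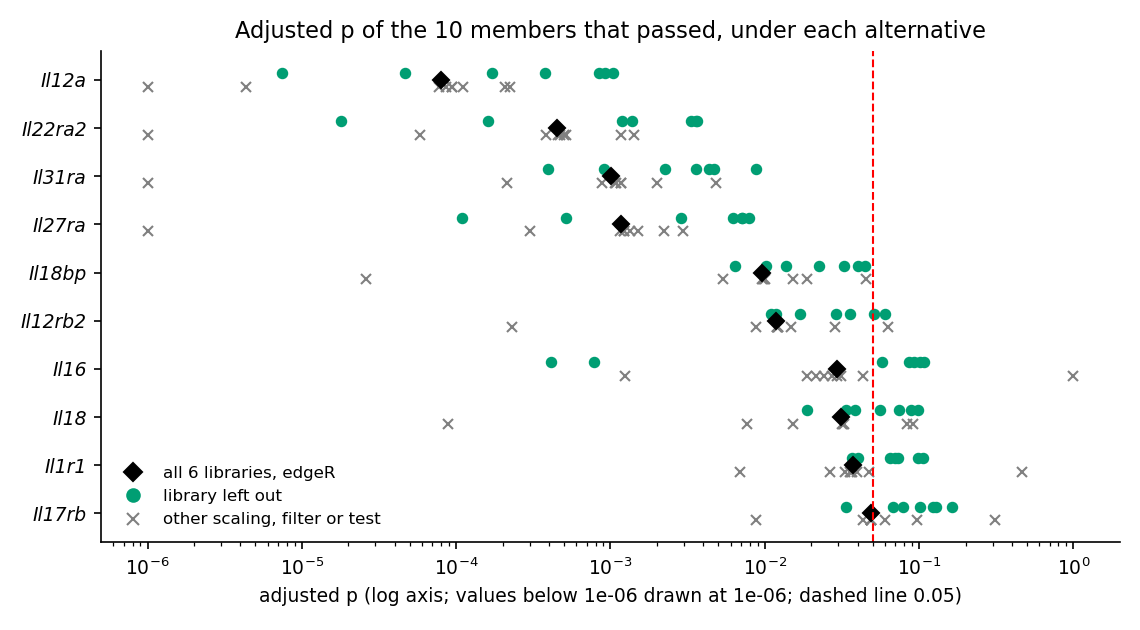
Adjusted p on a log axis for the 10 members that passed, with a diamond for the edgeR test on all 6 libraries, green circles for fits with a library or a pair of libraries left out, and grey crosses for other scalings, filters and tests (dashed line, 0.05; the smallest values are drawn at the left edge). All points of Il12a, Il22ra2, Il31ra, Il27ra and Il18bp lie left of the line, and the other 5 members have points on both sides.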

How the data were processed

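RNA was measured in 3 untreated and 3 tamoxifen libraries, grouped and numbered by the sample titles. The deposited files, 1 per library, hold raw counts per gene symbol with no normalization. FastQC, TopHat2 2.1.0, featureCounts and DESeq2 with build mm9 are named, without role or order, per the submitters' processing notes. The annotation, strand setting and handling of reads with several positions were not given in the sources used here. Without strand, overlapping genes such as Il1b and Il1bos share counts.

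Counts were scaled with TMM and filtered with filterByExpr (minimum count 10) in edgeR 4.0.16 (R 4.3.3), which left 12729 genes. The tamoxifen group was set against the untreated group by the quasi-likelihood F test of edgeR, with Benjamini-Hochberg adjustment over all genes tested. The SE was obtained by dividing the size of the log2 value by the root of F. The alternatives used limma 3.58.1 (voom), DESeq2 1.42.0, other scalings, filters and left-out libraries; the fit without untreated replicate 3 and tamoxifen replicate 1 was chosen after seeing the data. Exon lengths are from GENCODE M21, not the annotation of the counts, so levels per kilobase are approximate.

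All tested members are named, and untested members with at least 10 counts; of each list, the up to 4 passing genes with the smallest p are named, except 1 gene that is not reported here. Other genes were chosen after their values were seen. The members and lists were chosen with earlier results of these data known.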

Additional observations from a re-analysis of the deposited data

How the results depend on the processing

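Of the 10 calls, 4 of the 9 members that rose (Il12a, Il22ra2, Il27ra and Il18bp) and the 1 that fell (Il31ra) passed under all 16 alternatives, with adjusted p of at most 0.0455. The other 5 were lost under at least 1, and no call reversed. Leaving out a library, 4 to 9 members rose and 1 fell; 4 rose without untreated replicate 1 or 2, and 5 without tamoxifen replicate 3. Over all genes 586 to 1657 then rose and 443 to 1592 fell. With a required change above 1.5-fold, 4 members and 420 of all genes rose, and 227 of all genes fell. DESeq2 and the replicate block each gave 3 members that fell, Il31ra with Il6ra and Il17ra. DESeq2 gave 10 that rose (with Il10), and the block gave 8 (without Il17rb). Deviations of same-numbered libraries from their group means correlated at 0.12, -0.11 and 0.11, and those of unlike numbers at -0.17 to 0.14. With 3 libraries per group, these values cannot tell whether the titles' numbers pair the samples. Without untreated replicate 3 and tamoxifen replicate 1, a pair chosen after the data were seen, 13 members and 1818 of all genes rose. Of the members that did not pass, 7 changed sign somewhere. Leaving out a library, or that pair, gave log2 values of -0.0714 to 0.63 for Il1f9, -0.19 to 1.68 for Il1b, -0.0943 to 0.0941 for Il11ra1, -1.17 to 1.19 for Il27, -0.46 to 0.31 for Il15, -0.61 to 0.89 for Il10ra (0.49 without the pair) and -0.15 to 2.37 for Il13ra1. Il11ra1 was at 0.0167 with upper quartile factors, Il27 at 0.71 with voom and Il10ra at 0.0702 with the replicate block. The cause was not tested. Members with fewer than 10 counts were not compared at this depth.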
